A study of Mus musculus with 5 samples.

Results

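Cell junctions and epithelial polarity were examined through 32 genes in the colon of mouse fetuses that carried the floxed HNF4 gene on both chromosomes or on 1, together with a Cre transgene. The genes were taken by name, as junction and polarity proteins other than claudins and keratins, together with the splicing regulator Esrp1. Of these 32 genes, 31 were measured, by 62 of the 22626 probe sets tested on the array, and Cgn, which encodes the tight junction plaque protein cingulin, had no probe set with its single symbol. The HNF4 null group held 3 embryos of genotype HNF4LoxP/LoxP FoxA3Cre (null_59, null_60 and null_426). The control group held 2 embryos of genotype HNF4LoxP/+ FoxA3Cre (CONTROL_406 and CONTROL_421), which carried the same Cre transgene and 1 floxed allele. All were at stage E18.5, with 1 array of fetal colon RNA per embryo. The labels name the floxed gene only as HNF4 and the transgene only as FoxA3Cre, after Foxa3, which encodes a forkhead factor made in endoderm. They do not say in which cells or how completely the allele was deleted. They also do not say whether any of the embryos were littermates.

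Epithelial cells are joined along their sides by a belt of tight junctions, which seal the space between cells, and below it by adherens junctions, in which cadherins bind their like on the next cell and are tied to actin through catenins. Desmosomes tie keratin filaments of neighbouring cells together, and gap junctions are channels of connexins through which small molecules pass. The Par and Crumbs proteins place the tight junction at the border between the apical and the lateral membrane. HNF4 alpha is a nuclear receptor transcription factor of the intestinal epithelium, liver and kidney.

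Of 4 probe sets of Hnf4a, 2 separated the groups. The brightest read 649.8, 746 and 723 in null, and 945 and 991 in control colons (log2 difference -0.35 ± 0.17, SE; limma adjusted p = 0.719). The next brightest of Hnf4a read 344, 348 and 358 in null, and 639.9 and 442 in control colons, a log2 difference of -0.55 ± 0.19 (SE; limma unadjusted p = 0.0153, adjusted p = 0.603). The other 2 overlapped and differed by 0.14 and 0.19, and which part of the gene is floxed is not stated in the labels. Median intensities were 129.9 to 135 in null and 123.7 to 131.6 in control arrays. The Gapdh control probe sets gave a 3′ over 5′ ratio, a sign of RNA integrity or labelling, of 1.47 in CONTROL_421 and 0.767 to 0.895 in the other 4 arrays.

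No junction or polarity probe set passed the threshold of the whole-array comparison (limma, adjusted p under 0.05), against 0.124% of all probe sets. The smallest adjusted p among the 62 was 0.205. At an unadjusted p under 0.05, 6 probe sets of 5 genes were lower in HNF4 null colons, which is 9.68% of 62 against 4.33% of all probe sets. These were Cdh17, Marveld3, Dsc2, Dsg2 and both probe sets of Gjb1. At the same level 1 probe set, of F11r, was higher in HNF4 null colons, which is 1.61% against 2.82% of all probe sets. In 11 of the 62 (17.7%) every null array lay below both control arrays after normalisation, and in 1 (1.61%) every null array lay above both. Over all probe sets these shares were 11.6% and 12%. A larger lower share was not particular to the members. Of 24 probe sets of 12 epithelial marker genes, described below, 4 (16.7%) were lower and 0 higher at an unadjusted p under 0.05. In 6 of these 24 (25%) every null array lay below both control arrays, and in 2 (8.33%) above both. The median log2 difference, null minus control, was -0.05 over the 62 and 0.02 over all probe sets. For 51 of the 62 the 95% interval of the difference lay within a 2-fold change in either direction, and for 11 it did not. Over all 22626 probe sets these counts were 21131 and 1495, so a smaller share of the members was bounded in this way. Without CONTROL_421, 6 junction probe sets were lower at an unadjusted p under 0.05 (9.68%, against 2.57% of all probe sets in that fit), but not the same 6: in limma Marveld3 then had an unadjusted p of 0.103 and Dsg2 one of 0.144. The differences were then -0.99 for Cdh17, -1.03 for Dsc2 by 1426911_at and -0.53 for Gjb1 by its brighter probe set.

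**Figure D1:**
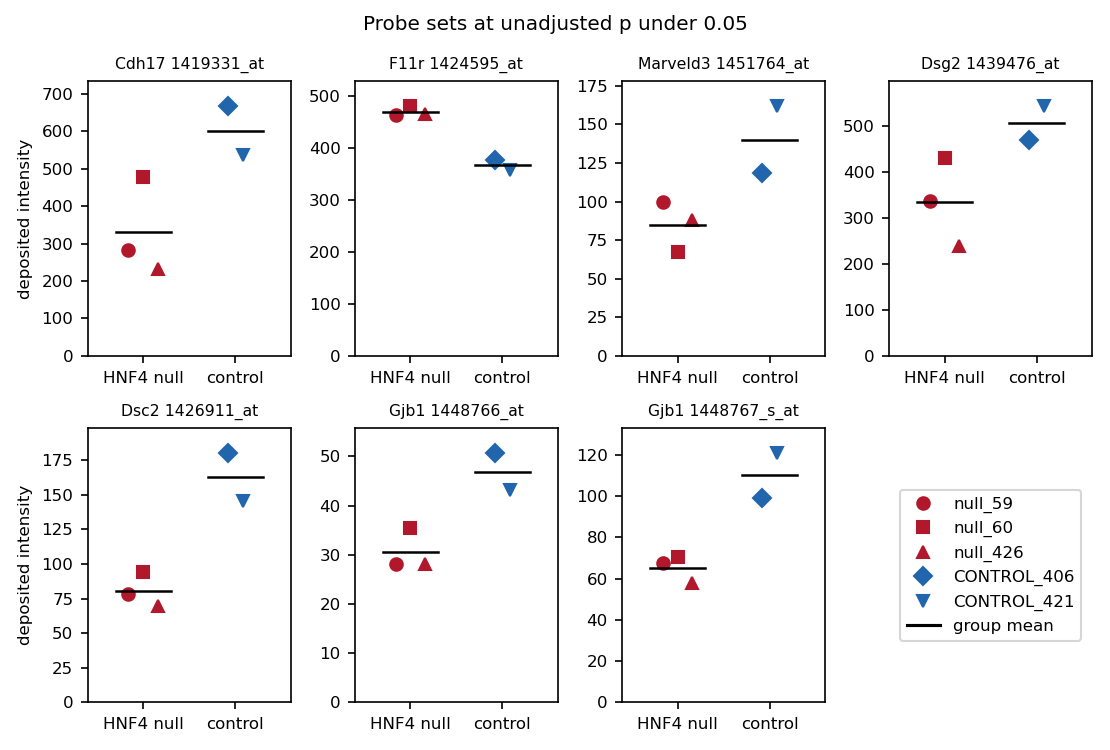
Deposited intensity (vertical axis, arbitrary units, from 0) of the 7 probe sets at an unadjusted p under 0.05, with the 3 HNF4 null arrays left of the 2 control arrays and a bar at each group mean. In the panels of Cdh17, Marveld3, Dsg2, Dsc2 and Gjb1 every null array sits below both control arrays, and in that of F11r every null array sits above both.

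A pair of members from opposite sides of this comparison had a promoter window in the sequence table used here, and their sequences follow, from RefSeq on GRCm38.p6, 5′ to 3′ on the strand of the gene. Each window runs from 250 bases before to 50 bases after an annotated start. Gjb1 encodes connexin 32. It is shown at 1 of its 4 annotated starts, chrX:101376985-101377284 on the plus strand, the one that holds a match to CAAAGNNCA, a core of the sites that HNF4 is known to bind. Another of its windows holds the second motif described here, CAGGTG, so the motifs do not divide the pair. The match, in capitals, is on the opposite strand at positions 281 to 289 of the window, counted from its 5′ end. F11r encodes the junctional adhesion molecule JAM-A and is shown at chr1:171437311-171437610 on the plus strand. In capitals at positions 129 to 134 is a match, again on the opposite strand, to CAGGTG, an E-box that the Snail and Zeb repressors of epithelial genes are known to bind.
Gjb1: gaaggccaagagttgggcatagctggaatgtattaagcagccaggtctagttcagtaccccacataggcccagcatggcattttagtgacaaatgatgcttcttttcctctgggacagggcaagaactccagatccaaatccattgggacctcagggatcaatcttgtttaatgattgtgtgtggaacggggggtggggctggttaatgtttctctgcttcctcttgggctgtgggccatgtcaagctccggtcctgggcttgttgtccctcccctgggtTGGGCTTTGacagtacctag
F11r: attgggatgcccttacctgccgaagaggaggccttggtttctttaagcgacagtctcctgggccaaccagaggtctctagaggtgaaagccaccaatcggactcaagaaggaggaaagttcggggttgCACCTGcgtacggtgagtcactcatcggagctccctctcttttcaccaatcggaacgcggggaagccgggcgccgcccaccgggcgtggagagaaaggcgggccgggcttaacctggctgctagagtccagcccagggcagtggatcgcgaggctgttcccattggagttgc

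Both motifs were searched on both strands, and neither contains the other, though matches to both can overlap by a few bases. Of the 32 members, 19 had entries, with 30 windows in all, some of which overlap. Cdh17, Marveld3, Dsc2 and Dsg2, lower at an unadjusted limma p under 0.05, had no window, and neither had Cdh1. The shares below therefore do not cover these genes. CAAAGNNCA occurred in 2 of the 30 windows (6.67%), 1 of Gjb1 and 1 of Tjp3, and in 6.36% of all 32851 windows. CAGGTG occurred in 15 of the 30 windows (50%) and in 20.2% of all windows. Counted by gene, it was in at least 1 window of 11 of 19 members (57.9%) and of 22.6% of all 27025 genes in the table, and Crb3, which encodes an apical Crumbs protein, held it 4 times in each of its 2 overlapping windows. These matches describe letters and do not show binding.

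Adherens junction genes were measured by 14 probe sets of 8 genes, with a median log2 difference of 0.04. The member that differed at an unadjusted p under 0.05 was Cdh17, the liver-intestine cadherin, which joins the lateral sides of gut epithelial cells without binding catenins. Its deposited intensities were 284 in null_59, 479 in null_60 and 233 in null_426, against 666 in CONTROL_406 and 537 in CONTROL_421. The groups did not overlap, and the null embryos differed from each other by more than the 2 controls did, with null_60 nearest to them. The fitted level was 1.81-fold lower in null colons, a log2 difference of -0.86 ± 0.26 (SE; 95% interval -1.45 to -0.27; limma adjusted p = 0.564). This difference was -1.12 without null_60 and -0.66 without null_426.

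Cdh1, or E-cadherin, the main cadherin of epithelial adherens junctions, was bright in all arrays, at 1032, 1148 and 716 in the null embryos and 1219.5 and 1144 in the controls. The log2 difference was -0.24 ± 0.19 (SE), and its interval of -0.67 to 0.19 left out a 2-fold decrease. Null_426 was the lowest of the 5 embryos, and the difference was -0.08 without it. Null_60 and CONTROL_421 had nearly the same value, so the groups overlapped as deposited, though not after normalisation.

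The catenins differed by -0.18 to 0.37 on the log2 scale by their brightest probe sets. Ctnnb1, or beta-catenin, averaged 2023 ± 262 in null (SD, n = 3) and 2432 ± 398 in control colons (SD, n = 2) by its brightest probe set, a log2 difference of -0.18, and its other 2 probe sets differed by -0.07 and -0.11. Ctnna1, or alpha-catenin, averaged 993 ± 194 in null and 959.7 ± 69.6 in control colons, a log2 difference of 0.12. A second bright probe set of this gene differed by -0.06, and one more, at the 1.02 percentile of intensity, read between 3.14 and 13.5 in every array and differed by 0.03. For Ctnnd1, or p120-catenin, which holds cadherins at the cell surface, the log2 difference was 0.37 ± 0.25 (SE). Its 3 null values of 240.0, 292 and 186 overlapped those of the controls, 236 and 128. The difference of Ctnnd1 was 0.0095 without CONTROL_421 and 0.72 without CONTROL_406.

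Vcl encodes vinculin, which anchors actin at junctions and is also abundant in muscle. Its log2 difference was 0.22 by the brighter and 0.71 ± 0.37 (SE) by the dimmer probe set. In the dimmer one CONTROL_421 stood lowest, at 53.9 against 178 in CONTROL_406 and 151 to 259 in the null embryos. Cdh3, or P-cadherin, showed the same low value in CONTROL_421. It read 172, 83.2 and 139 in null colons, and 124 and 47.6 in the control ones. The log2 difference of Cdh3 was 0.54, with an interval of -0.21 to 1.28, and it was 0.03 without CONTROL_421. Cdh2, the N-cadherin of neural and mesenchymal cells, differed by 0.33 and 0.06 by its 2 probe sets. The probe sets of Cdh2 and Cdh3 stood below the median intensity of the array, at percentiles 41.2 to 47.4.

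Tight junction genes were measured by 7 probe sets of 6 genes, and here both directions appeared. Marveld3 belongs with occludin and tricellulin to the tight junction proteins with a MARVEL domain. It read 99.9, 67.2 and 88.1 in the null embryos, and 119 and 162 in the controls. The groups did not overlap, and the log2 difference was -0.67 ± 0.21 (SE; 95% interval -1.14 to -0.20; limma adjusted p = 0.578), or 1.59-fold lower in null colons. It was -0.44 without CONTROL_421 and -0.90 without CONTROL_406. Marveld2, or tricellulin, which seals the corners where cells meet, read 71.7, 89.9 and 82.1 in null, and 118 and 84.3 in control colons, a log2 difference of -0.33 ± 0.18 (SE). Ocln, or occludin, had group means of 217 ± 25.0 in null (SD, n = 3) and 216 ± 59.6 in control colons (SD, n = 2). The log2 difference of Ocln was 0.01, with an interval of -0.43 to 0.44.

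F11r was the only member above the controls at an unadjusted p under 0.05. Its brighter probe set read 464, 481 and 467 in HNF4 null colons, and 377 and 358 in control colons. Values within each group lay close together, and the fitted level was 1.30-fold higher in null colons, a log2 difference of 0.38 ± 0.16 (SE; 95% interval 0.02 to 0.73; limma adjusted p = 0.688). Its unadjusted limma p was 0.0387, and it was 0.0639 on the values as deposited and 0.0931 with median centring. The second probe set of F11r was dim, between 13.6 and 29.0 in all arrays, and differed by 0.13.

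The plaque proteins of the tight junction showed no shared direction. Tjp1, or ZO-1, the scaffold under the tight junction, differed by 0.08, at 708 ± 111 in null (SD, n = 3) and 685 ± 29.3 in control colons (SD, n = 2). Tjp3, or ZO-3, its relative of epithelia, read 185, 175 and 103 in null, and 164 and 300.2 in control colons. CONTROL_421 alone was high for Tjp3, and the log2 difference of -0.56 ± 0.31 (SE) had an interval of -1.25 to 0.13 and was -0.13 without that array.

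**Figure D2:**
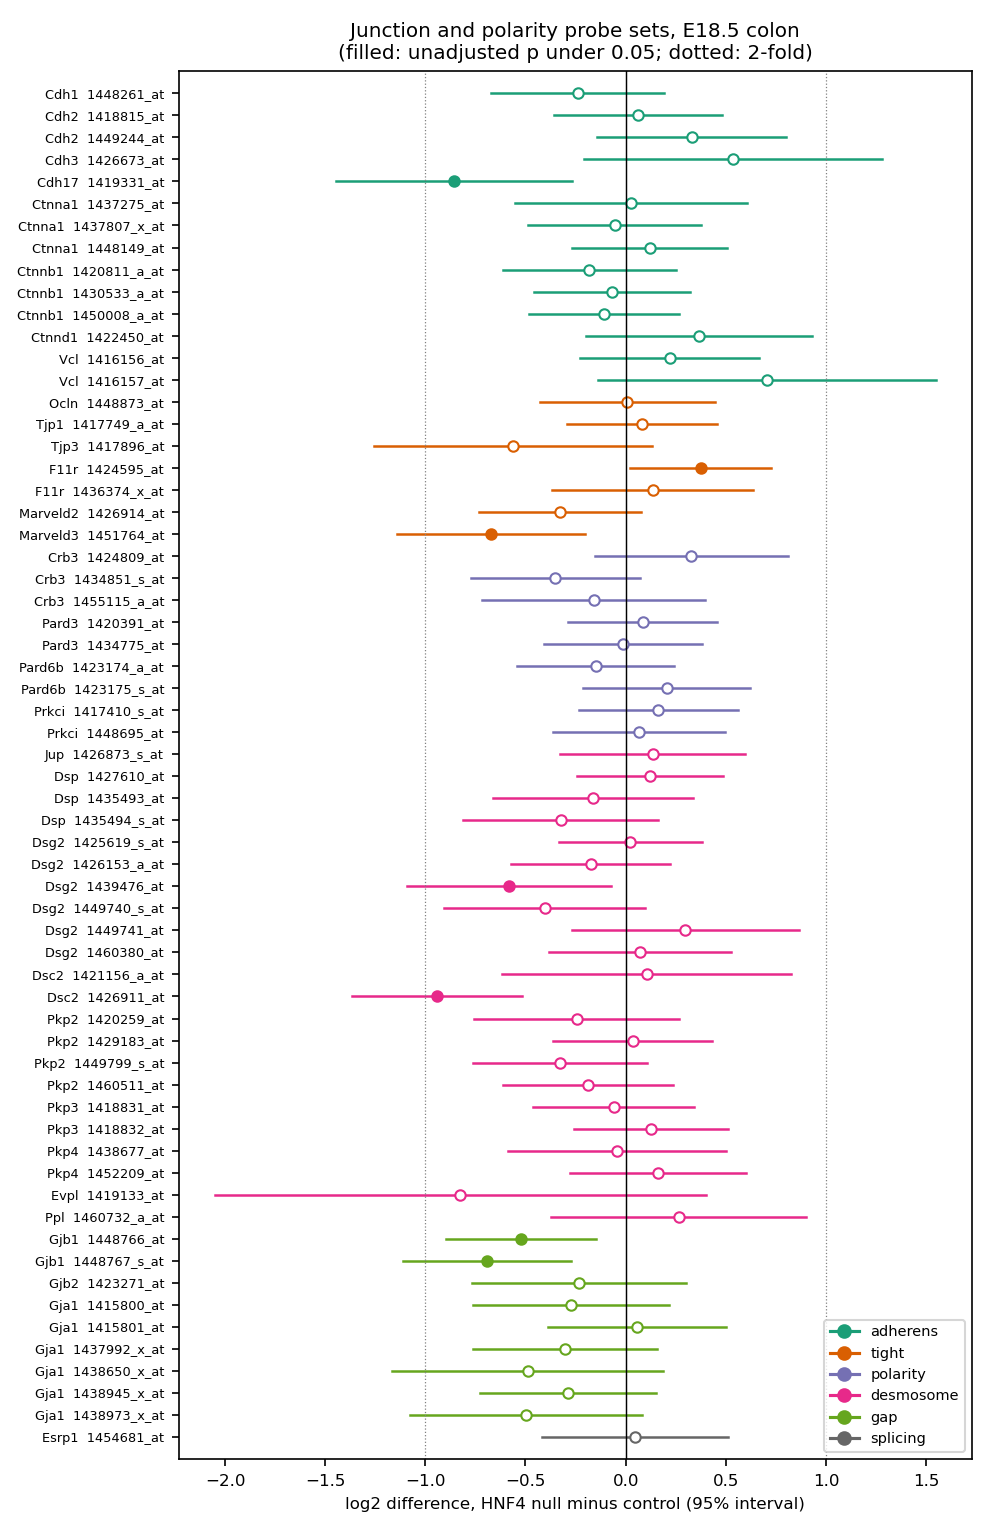
Log2 difference, HNF4 null minus control (horizontal axis), of all 62 probe sets with its 95% interval, one row each and coloured by junction type. Filled points have an unadjusted p under 0.05, and the dotted lines mark 2-fold. Cdh17, Dsc2, Marveld3, Gjb1 and 1 probe set of Dsg2 lie left of 0, and 1 probe set of F11r lies right of it.

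None of the 9 probe sets of the polarity genes differed at an unadjusted p under 0.05 in limma. All 9 intervals lay within 2-fold, as did those of 21131 of all 22626 probe sets. Prkci, the atypical protein kinase C of the Par complex, differed by 0.16 and 0.07 by its 2 probe sets. Pard3, the scaffold of that complex, differed by -0.01 and 0.08. Pard6b, which ties the kinase to its partners, differed by 0.21 and -0.15. For Crb3 the 3 probe sets gave 0.33, -0.35 and -0.16. The 1434851_s_at probe set of Crb3 read 186, 231 and 161 in the null embryos, below the 242 and 248 of the controls, while by 1424809_at the null embryos, at 615, 515 and 713, overlapped the controls, at 454 and 560.1. The 2 probe sets of Crb3 therefore placed the same 5 embryos in different orders.

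Desmosome genes were measured by 22 probe sets of 9 genes, with a median log2 difference of -0.05. Dsc2, or desmocollin 2, and Dsg2, or desmoglein 2, are the desmosomal cadherins of simple epithelia. Dsc2 had the smallest p of all members, by probe set 1426911_at. This read 78.4 in null_59, 94.4 in null_60 and 69.7 in null_426, against 180.3 in CONTROL_406 and 146 in CONTROL_421. Both controls stood clear of all null values, and the fitted level was 1.92-fold lower in null colons, a log2 difference of -0.94 ± 0.19 (SE; 95% interval -1.36 to -0.52; limma adjusted p = 0.205). Leaving out each embryo in turn gave differences from -1.05 to -0.83.

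The other probe set of Dsc2, of nearly the same mean intensity, did not show this. It read 125, 106 and 115 in null colons, and 175 in CONTROL_406 and 55.3 in CONTROL_421, so that the 2 controls lay on opposite sides of the null group. Its log2 difference of 0.10 ± 0.32 (SE) was 0.75 without CONTROL_406 and -0.54 without CONTROL_421.

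Dsg2 was covered by 6 probe sets that fell into different patterns. By 1439476_at it read 337, 429 and 239 in the null embryos, and 469 and 541 in the controls, a log2 difference of -0.58 ± 0.23 (SE; 95% interval -1.09 to -0.07; limma adjusted p = 0.653). This difference was -0.38 without null_426. Probe set 1449740_s_at also had all null values below the controls, by a small margin (396 in null_60 against 397 in CONTROL_406), with a log2 difference of -0.40. The brightest one, 1460380_at, differed by 0.07, with 485, 416 and 586 in null, and 489 and 471 in control colons. Null_426 was the lowest embryo by the first 2 of these and the highest by 1460380_at. For 1449741_at the log2 difference was 0.30, and null_426 was again highest, at 373. The remaining 2 probe sets differed by 0.02 and -0.17. The plot of probe sets of the same gene shows these opposite positions of null_426.

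**Figure D3:**
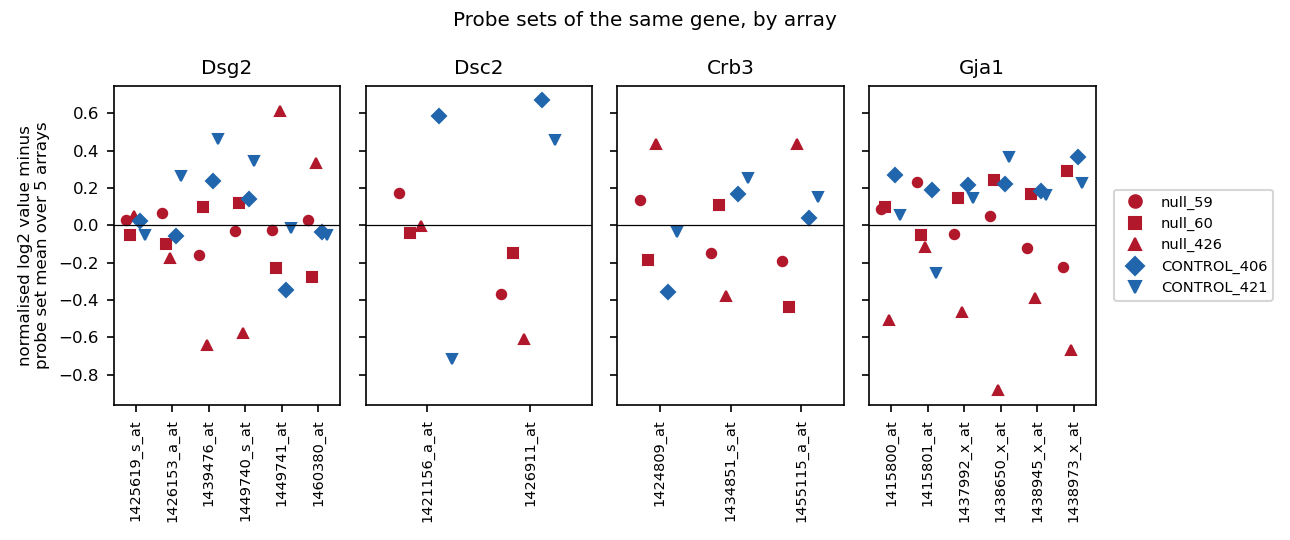
Normalised log2 value of each array minus the mean of its probe set over the 5 arrays (vertical axis) for every probe set of Dsg2, Dsc2, Crb3 and Gja1 (horizontal axis), with HNF4 null arrays in red left of control arrays in blue. Null_426 is lowest in 1439476_at and highest in 1449741_at of Dsg2, and the 2 controls lie on opposite sides in 1421156_a_at of Dsc2.

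The desmosomal plaque proteins showed no shared direction. Dsp, or desmoplakin, which binds keratin filaments, averaged 425 ± 118 in null (SD, n = 3) and 538 ± 54.9 in control colons (SD, n = 2) by its brightest probe set, a log2 difference of -0.32 ± 0.22 (SE). Its other 2 probe sets differed by -0.16 and 0.12. Jup, or plakoglobin, which serves both desmosomes and adherens junctions, differed by 0.14. The plakophilins, armadillo proteins that cluster desmosomal cadherins, differed by 0.04 for Pkp2, 0.13 for Pkp3 and 0.16 for Pkp4 by their brightest probe sets. The 3 dimmer probe sets of Pkp2 ranged from -0.33 to -0.19, and those of Pkp3 and Pkp4 differed by -0.06 and -0.04.

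Evpl and Ppl encode envoplakin and periplakin, plakins best known from the cornified envelope of stratified epithelium. Evpl read 12.9 in null_59, against 133 and 102 in the other null embryos and 126 and 116 in the controls. Its log2 difference of -0.82 ± 0.55 (SE) rested on that embryo, and it was -0.12 without null_59. Ppl read 452 in null_426 and between 226 and 258 in the other 4 embryos, and its log2 difference of 0.26 was -0.06 without null_426.

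Gap junction genes had the lowest median of the junction types, -0.30 over 9 probe sets of 3 genes. Of these probe sets 8 were below 0, against 10649 of all 22626. Of the 9 probe sets 6 belong to Gja1, 5 of them below 0, so neither the median nor the count is that of independent genes. Gjb1, the connexin 32 of liver and gut epithelium whose promoter is given above, was lower by both of its probe sets. The brighter one read 67.7, 70.6 and 57.9 in the null embryos, and 99.2 and 121 in the controls. Its log2 difference was -0.69 ± 0.19 (SE; 95% interval -1.11 to -0.27; limma adjusted p = 0.460), or 1.62-fold lower in null colons. The dimmer one read 28.1, 35.3 and 28.2 in null, and 50.7 and 43.1 in control colons, a log2 difference of -0.52 ± 0.17 (SE; adjusted p = 0.585). Both probe sets separated the groups, and with each embryo left out in turn the brighter one gave differences from -0.85 to -0.53. Both lay below the median intensity of the array, at percentiles 32.2 and 11.8, where the pseudocount of 16 shrinks the difference. With a pseudocount of 1, the brighter one differed by -0.82.

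Gja1, the connexin 43 of muscle and many other cells, differed by -0.30 by its brightest probe set, which read 205, 243 and 154 in null, and 255 and 234 in control colons. This difference was -0.13 without null_426. Its other 5 probe sets ranged from -0.50 to 0.06. Of the 6, 4 carry the _x_at mark, which the array maker gives to probe sets whose probes may also bind other transcripts. Null_426 was the lowest embryo in each of these 4 and in 1415800_at, which does not carry the mark. Gjb2, or connexin 26, read 111, 109.5 and 121 in null, and 96.8 and 180.5 in control colons, with the null values between the 2 controls. Its log2 difference of -0.23 was 0.19 without CONTROL_421 and -0.65 without CONTROL_406.

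Esrp1, which directs epithelial splicing of transcripts such as that of p120-catenin, averaged 444 ± 114 in null (SD, n = 3) and 427 ± 14.2 in control colons (SD, n = 2). The log2 difference was 0.05, with an interval of -0.42 to 0.51. Null_60 was the highest and null_426 the lowest of the 5 embryos for Esrp1.

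Probe sets of the same gene did not always share a sign. Of the 31 genes, 17 had several probe sets, and in 11 of these the probe sets gave differences of both signs. In 2 genes (Ctnnb1 and Gjb1) all lay below 0, and in 4 (Cdh2, F11r, Prkci and Vcl) all lay above 0. Some of the genes with both signs had differences near 0, such as Pard3 (-0.01 and 0.08) and Pkp3 (-0.06 and 0.13). The share of genes with both signs over the whole array was not computed. By the brightest probe set of each gene, 13 of 31 were below 0 and the median was 0.05. By that choice 3 genes were lower at an unadjusted p under 0.05 (Cdh17, Marveld3 and Gjb1) and 1 was higher (F11r). The lower values of Dsc2 and Dsg2 came from a probe set other than the brightest.

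**Figure D4:**
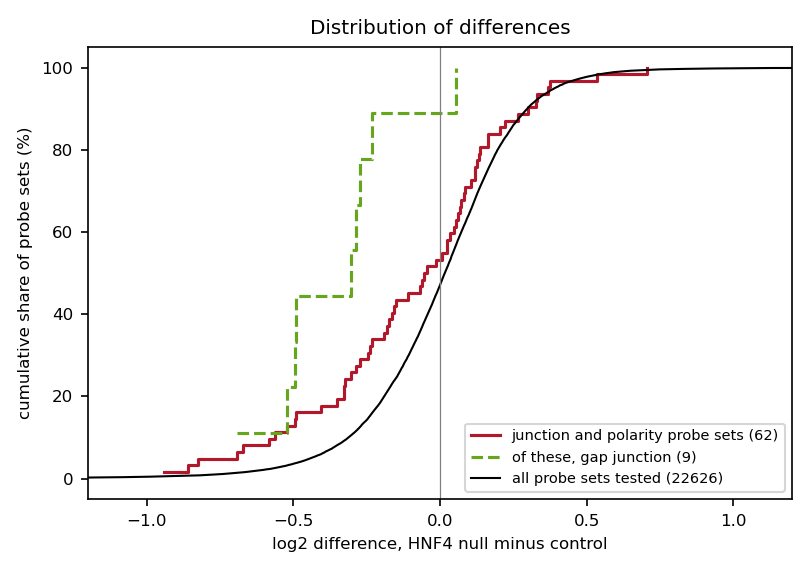
Cumulative share of probe sets (vertical axis, percent) at or below each log2 difference, HNF4 null minus control (horizontal axis), for the 62 junction and polarity probe sets, the 9 gap junction ones among them and all 22626 tested. The red line lies above the black one left of 0, where its median is -0.05 against 0.02, and the gap junction line, with a median of -0.30, lies left of both over most of its length.

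Further genes of these structures, together with 11 genes of splicing and epithelial identity, made a list of 83, of which 63 were measured by 104 probe sets. The splicing and identity genes gave 16 of the 104, with 0 at an unadjusted p under 0.05, so the shares below are not those of junction genes alone. At an unadjusted p under 0.05, 3 of the 104 were lower in HNF4 null colons (2.88%, against 4.33% of all probe sets) and 1 was higher (0.962%, against 2.82% of all). Both shares lay below those of the whole array, and none passed limma's adjusted threshold. The lower ones were Pkp1, a plakophilin of stratified epithelium, at -0.75, and Nectin3, an immunoglobulin-like adhesion molecule of adherens junctions, at -0.49 and -0.42 by 2 of its 5 probe sets, while a dimmer one of Nectin3 differed by 0.29. Pkp1 read 81.1, 74.5 and 74.5 in null colons, and 82.3 in CONTROL_406 and 218 in CONTROL_421, so that CONTROL_406 lay near the null values. The higher one was Mpdz, a scaffold with many PDZ domains at tight junctions, at 0.50 by 1 of its 2 probe sets. By type, 28 probe sets of further adherens junction genes had a median of 0.09, 31 of tight junction genes 0.06, 19 of polarity genes 0.02, 4 of desmosome genes -0.24 and 11 of gap junction genes 0.11. Patj and Pals1 are counted under both tight junctions and polarity. The median of the further gap junction genes was thus above 0 and that of Gjb1, Gjb2 and Gja1 below it, a contrast that was not tested. Among regulators of epithelial identity, Esrp2, the paralog of Esrp1, differed by 0.16 and -0.09. The repressor genes Zeb1, Zeb2, Snai1 and Snai2 differed by 0.14, 0.19, -0.09 and -0.24 by their brightest probe sets.

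In RNA of a whole colon, fewer cells of a type and less RNA per cell cannot be told apart. The epithelial marker list, all 12 of which were measured, had a summed normalised intensity of 14857 to 17476 in HNF4 null and 17487 to 17973 in control colons. Of its 12 genes 7 were below 0 by the brightest probe set. Its 24 probe sets differed by -0.89 to 0.38, with a median of -0.09, and 16 of them were below 0 and 8 above. Among its genes, the adhesion gene Epcam differed by -0.66 and the protease inhibitor gene Spint1 by -0.68. The keratin genes Krt8, Krt18 and Krt19 of simple epithelium differed by -0.15, 0.29 and 0.14. The smooth muscle list summed to 15461 to 16760 in null and 12672 to 15077 in control colons, with 7 of 8 genes above 0. For mesenchyme the sums were 9638.7 to 12230 in null and 11148 to 12400 in control colons, and for endothelium 1416 to 1679 and 1393 to 1502 in the same order. The squamous and urothelial list summed to 1183 to 1423 in null and 1146 to 1261 in control colons, and the mesothelial list of 3 genes to 370.2 to 457 and 259 to 364. Neuronal and glial markers summed to 1045 to 1318 in null and 925 to 1164 in control colons, and macrophage markers to 1023 to 1213 and 1094 to 1448. None of the markers had a mean at 0 or below, and the dimmest epithelial one, the protease gene St14, averaged 236. Their part in the differences of Cdh17, Dsc2, Marveld3 and Gjb1 was not tested.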

How the data were processed

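The deposited table gave 1 linear intensity per probe set and array. How the authors summarised probes, subtracted background and scaled arrays is not given in the sources used here. Per the labels' protocols, total RNA was isolated with a Qiagen RNeasy mini kit and biotin-labelled by the Affymetrix procedure. The 64 control probe sets were left out. A platform annotation of 2016 gave 20380 of the remaining 22626 probe sets 1 symbol, 691 several and 1555 none.

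Values below 0 were set to 0, log2(intensity + 16) was taken, arrays were quantile normalised, and limma 3.58.1 in R 4.3.3 (lmFit, eBayes, two-sided, no covariate) compared HNF4 null with control over all 22626 probe sets, with Benjamini-Hochberg adjustment. Fold changes on this scale understate those of dim genes. The total degrees of freedom were 9.33, of which 3 were residual. Printed single values, means and SDs are deposited intensities, and the overlap of groups was judged on normalised values. Precision is limited by the number of arrays. The p-values rest on the spread between embryos within each group, with each variance drawn by eBayes towards a value from all probe sets. Members were led by their brightest probe set, and every measured member was named. Members, lists and motifs were chosen with earlier results of these data known.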

Additional observations from a re-analysis of the deposited data

How the results depend on the processing

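Results were recomputed without scaling, with median centring, with pseudocounts of 1 or 64, without dim probe sets (below the median mean intensity), with a trended or robust trended prior, with array weights, with probe sets averaged per gene, and leaving out each embryo. In all of those with a value over the 62 probe sets, 0 passed limma's adjusted threshold, and the count lower at an unadjusted p under 0.05 was 6 in the fit reported. Removal of dim probe sets left 39 of the 62, with 2 lower (Cdh17 and Dsg2), or 5.13% against 4.98% of all probe sets left, so the larger share of lower members was gone. The median was 0.0052 against 0.02 over all. The lower probe sets of Marveld3, Dsc2 and Gjb1 were among the dim ones removed. The lower count was 5 to 11 with 1 embryo left out (11 without null_60, 17.7% against 6.13% of all) and 9 with array weights (14.5% against 6.16% of all). The higher count was 0 as deposited and with median centring, 3 with array weights (4.84%, against 4.86% of all probe sets) and 0 to 5 with 1 embryo left out (5 without CONTROL_406, 8.06% against 5.16% of all, 3 without null_60, 4.84% against 3.30%, 0 without null_59 or null_426). Cdh17 had an unadjusted limma p of 0.0615 without CONTROL_406, Marveld3 one of 0.103 and Dsg2 (1439476_at) one of 0.144 without CONTROL_421. F11r kept an unadjusted p under 0.05 in 7 of 13 alternatives. The brighter probe set of Dsc2 ranged from -0.54 without CONTROL_421, the reverse of its 0.10, to 0.75 without CONTROL_406. Of 425 single-gene values under alternatives, 26, in 12 genes, changed sign with neither value at an unadjusted p under 0.05, and the cause was not tested. No paired analysis was possible because the labels do not say which of the embryos, if any, were littermates.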

Other observations

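Null_426 was the lowest of the 5 embryos in 25 of the 62 junction and polarity probe sets (40.3%), against 23.5% of all probe sets, and the highest in 13 (21.0%), against 27.1% of all. After normalisation it was the lowest by the brightest probe set of Cdh1, Cdh17, Ctnna1, Vcl, Tjp1, Tjp3, Pard3, Dsp, Gjb1, Gja1 and Esrp1. Among others, it was the highest for Ppl and for 2 of the 3 probe sets of Crb3. Without null_426, 5 junction probe sets (8.06%) were lower at an unadjusted p under 0.05, against 3.01% of all probe sets in that fit. The median log2 difference of the 62 was then -0.05.

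The summed normalised intensity of the 3 connexin genes, by the brightest probe set of each, was 319 to 418 in HNF4 null and 445 to 552 in control colons. The sum over the 8 adherens junction genes was 5124 to 6519 in null and 6052 to 6235 in control colons, and that over the 9 desmosome genes 2388 to 2790.4 and 2458 to 2498 in the same order. For the 6 tight junction genes the sum was 1587 to 1826 and 1697 to 1767, and for the 4 polarity genes 1413.5 to 1891 and 1475 to 1650. Among these sums, only those of the connexin genes do not overlap. Gja1 is the brightest of these, at a mean of 218. Of all single probe sets, 11.6% had every null array below both controls, which is not a share for sums over lists. The sums of the epithelial markers did not overlap either, by a small margin (17476 in null_60 against 17487 in CONTROL_406). Those of the smooth muscle and mesothelial markers did not overlap in the other direction, with null above control.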
